A study of Mus musculus with 8 samples.

Results

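SMC1 is a core subunit of cohesin, and the regions described here are SMC1 peaks that were listed in resting mouse cortical neurons, had no overlapping peak after NMDA, and lay inside genes other than the very long ones. They were chosen by 4 conditions applied to the deposited peak lists. The resting peak overlapped no NMDA peak by even 1 bp, its midpoint was more than 1 kb from every annotated gene end, it lay inside an annotated gene of any biotype, and it lay inside no protein-coding gene of 300 kb or longer. Of 12359 resting peaks, 3784 met all of them (30.6%). They are called resting-only intragenic peaks below. Absence from the NMDA list was part of the selection and is not a result about these peaks: 89.3% of all resting peaks had no overlapping NMDA peak, and the NMDA list held 1684 peaks in all.

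The groups were NMDA-treated SMC1 ChIP, NMDA-treated input, resting SMC1 ChIP and resting input, with 2 samples each. All came from wild-type cortical neurons of embryonic day 16 Swiss-Webster mice, kept 13 days in vitro, with about 15 M cells per replicate. NMDA-treated cultures received 50 µM NMDA, an agonist of one class of glutamate receptor, for 10 min and then 50 min in drug-free medium, and resting cultures received none. The labels call the replicates biological without saying whether they came from separate litters, and the growth protocol also mentions the topoisomerase poison etoposide, which the treatment label of no sample names. The authors deposited 1 list per condition, of peaks found in both replicates at an irreproducible discovery rate (IDR) up to 0.05. Read depth is unknown, so a peak missing from the NMDA list shows only that it was not listed there. Genes of glia and of other tissues are given below as host genes only, because SMC1 binding does not measure expression, and the labelled cell type could not be checked against markers.

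Cohesin is a ring of SMC1, SMC3, RAD21 and a STAG subunit that extrudes chromatin loops until it is unloaded or halted, often at the insulator protein CTCF. Inside genes it is found at CTCF sites, at intragenic enhancers and at alternative promoters, and transcribing RNA polymerase can push it along the gene towards its 3' end. In neurons, cohesin takes part in the contacts between enhancers and the promoters of activity-dependent and synaptic genes.

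Alternative transcript starts inside a host gene were the places where sequence could be set beside a peak. The windows below are RefSeq sequence of GRCm38.p6, each running from 250 bases before to 50 bases after an annotated transcript start and written 5' to 3' on the transcript's strand. They are the 4 start windows under the strongest resting-only intragenic peaks that lay more than 5 kb from every gene end and over a start of their own host. The pairing shows that such starts could be CpG-rich or carry a CTCF-like motif with almost no CpG. Capitals mark CpG dinucleotides in Prickle1 and Smco4. In Ptch1 and Gm13404 they mark a match to a CTCF core form, 2 C, any 3 bases, A, G, any 2 bases, 2 G and C.
Prickle1, chr15:93519471-93519770, minus strand: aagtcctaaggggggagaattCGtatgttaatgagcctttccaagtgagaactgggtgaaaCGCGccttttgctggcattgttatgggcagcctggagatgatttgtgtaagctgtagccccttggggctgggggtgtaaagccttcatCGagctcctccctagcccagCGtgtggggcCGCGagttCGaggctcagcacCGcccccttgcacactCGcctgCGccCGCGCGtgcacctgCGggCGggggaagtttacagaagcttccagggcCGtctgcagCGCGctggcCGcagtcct
Ptch1, chr13:63565686-63565985, minus strand: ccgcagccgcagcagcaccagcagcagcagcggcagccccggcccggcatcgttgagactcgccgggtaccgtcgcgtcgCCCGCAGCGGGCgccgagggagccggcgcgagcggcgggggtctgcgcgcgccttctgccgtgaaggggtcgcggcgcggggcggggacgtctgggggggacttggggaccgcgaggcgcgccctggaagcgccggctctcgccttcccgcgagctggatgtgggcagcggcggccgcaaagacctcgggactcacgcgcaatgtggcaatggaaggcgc
Gm13404, chr2:33973474-33973773, plus strand: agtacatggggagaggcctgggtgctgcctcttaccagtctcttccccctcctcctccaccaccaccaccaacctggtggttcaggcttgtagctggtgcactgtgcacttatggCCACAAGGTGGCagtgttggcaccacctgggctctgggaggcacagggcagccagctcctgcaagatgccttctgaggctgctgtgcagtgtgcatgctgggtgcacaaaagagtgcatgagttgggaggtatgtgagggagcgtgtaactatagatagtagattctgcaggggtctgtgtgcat
Smco4, chr9:15493182-15493481, plus strand: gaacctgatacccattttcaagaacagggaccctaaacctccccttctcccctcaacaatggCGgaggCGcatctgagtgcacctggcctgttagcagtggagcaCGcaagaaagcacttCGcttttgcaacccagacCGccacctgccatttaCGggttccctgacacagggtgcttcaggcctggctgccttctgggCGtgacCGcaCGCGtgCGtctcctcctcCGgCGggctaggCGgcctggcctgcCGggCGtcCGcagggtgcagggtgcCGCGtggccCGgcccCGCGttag

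In Prickle1, a planar cell polarity gene, the window lay 76.7 kb from the outer start of the gene and had 20 CpG. The peak over it had a summed −log10 p of 78.9 made up of 37.7 and 41.1 in the replicate columns. At Ptch1, the receptor of Hedgehog ligands, the window lay 7.73 kb from the outer start, had 47 CpG, and carried the CTCF core form from base 81. Its peak of 66.2 was uneven between the columns, with 48.1 and 18.1. Gm13404, a long noncoding RNA gene, had 1 CpG in its window and the motif from base 116, under a peak of 65.7 with 32.9 and 32.8 in the columns. Smco4, a gene for a small single-pass membrane protein, had 22 CpG in its window, 25 kb from the outer start of the gene. Its peak had 52.8 (19.4 and 33.4).

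Strength was the authors' sum of the −log10 p of both replicates, used here only to rank and describe peaks within the resting list. The resting-only intragenic peaks were of ordinary strength for that list. Their median was 30.1 (quartiles 23.3 and 41.2, range 16.7 to 161), against 28.9 for 787 resting-only peaks in genes of 300 kb or longer, 32.0 for 3607 resting-only intergenic peaks and 26.2 for 2860 resting-only peaks within 1 kb of gene ends. Over all 12359 resting peaks the median was 30.2. The 334 shared peaks inside shorter genes, which overlapped an NMDA peak, had a median of 47.7 (quartiles 28.9 and 70.9). On the log2 scale the median of the resting-only intragenic peaks lay 0.06 above that of the long genes, at −0.09 against intergenic peaks and at −0.66 against the shared peaks. The quartile ranges of all these classes overlapped.

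Width followed the same order against the shared peaks. The median width was 583 bp (quartiles 442 and 765 bp), against 615 bp in long genes, 568 bp in intergenic peaks, 781.5 bp at gene ends and 928.5 bp in shared peaks. Of the resting-only intragenic peaks, 287 (7.58%) were in the strongest 10% of the resting list, against 119 of the shared peaks (35.6%). At a stricter IDR up to 0.01 stood 2123 of them (56.1%), against 53.9% in long genes, 61.7% of intergenic peaks and 76.9% of shared peaks. Overlap with an NMDA peak was used to separate these classes, so the contrast with shared peaks is a description.

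**Figure D1:**
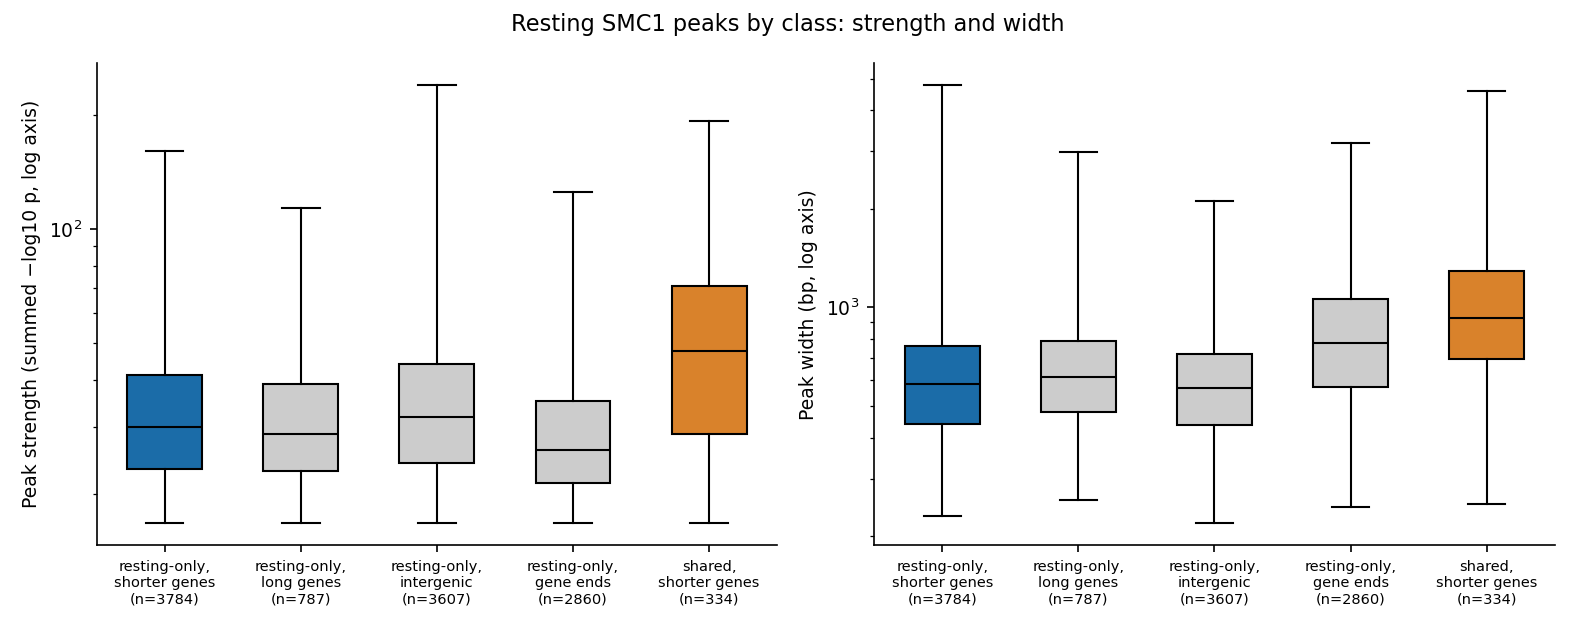
Strength (left, summed −log10 p, log axis) and width (right, bp, log axis) of resting SMC1 peaks in 5 classes; boxes span the quartiles, the line is the median and whiskers reach the lowest and highest peak. The resting-only intragenic peaks (blue, median 30.1 and 583 bp) lie beside the resting-only long-gene and intergenic classes and below the shared peaks (orange, median 47.7 and 928.5 bp).

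The replicate columns had medians of 14.95 and 14.5 over these peaks. One column was the higher in 1999 of 3784 peaks (52.8%), and the values were within 2-fold of each other in 3140 (83.0%). Across the peaks, which share their 2 libraries and had all passed in both, the Spearman correlation between the columns was 0.37, as against 0.36 in long genes, 0.41 in intergenic peaks and 0.64 in shared peaks. The intervals called in each replicate overlapped over a median of 66.6% of the merged peak, and over 75.3% in shared peaks. Many peaks had the same value in a column: 784 and 777 distinct values occurred, and the most frequent, 12.6 in one column and 9.67 in the other, occurred 107 and 121 times.

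**Figure D2:**
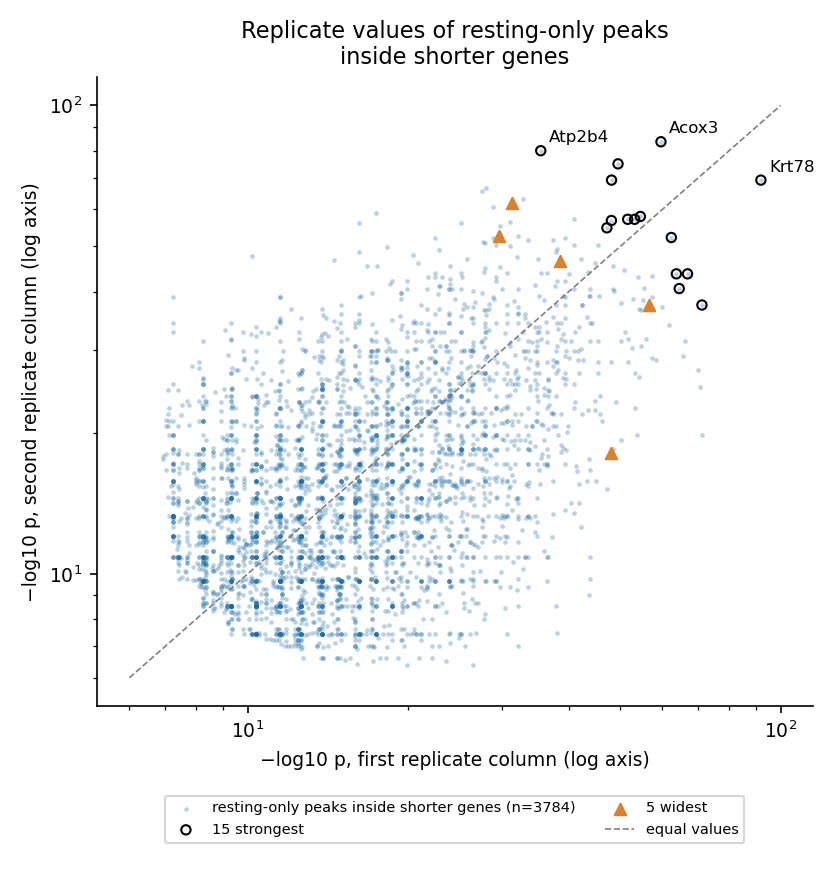
Each point is 1 resting-only intragenic peak (n = 3784), placed by the −log10 p of the replicate columns on log axes; circles mark the 15 strongest peaks and triangles the 5 widest. Points spread to both sides of the line of equal values, and the top peak in Krt78 stands at 91.8 and 69.3.

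The strongest of these peaks lay in genes of many kinds. A peak inside Krt78, an epithelial keratin gene, led with 161 (91.8 and 69.3) at chr15:101988084-101988605, and a second Krt78 peak had 112. The first lay 3.35 kb and the second 9.69 kb from an NMDA peak, so both were close to a listed NMDA site without touching it. Acox3, a peroxisomal acyl-CoA oxidase gene, had 143 (59.6 and 83.7) at chr5:35595538-35596702.

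The other strong peaks were spread over genes of different functions. Eaf2, an elongation factor partner gene, had 117 at chr16:36817068-36817788, and Atp2b4, a plasma membrane calcium pump gene, had 116. In Atp2b4 the columns were 35.5 and 80.1, the largest ratio between columns among the 15. Col18a1, the gene of the basement membrane collagen that gives rise to endostatin, had 115 (62.4 and 52.3), and the cytokine gene Lif had 111. Prex1, a Rac exchange factor gene, had 109, the Notch target Hes1 107, the interferon-induced receptor transporter gene Rtp4 105 and the oxysterol-binding protein gene Osbpl5 102. Noncoding hosts supplied Gm10832 with 125, Gm30033 with 110, and a peak inside both 2610035D17Rik and LOC115487747 with 109. Apart from the Krt78 pair, the nearest NMDA peak to these 15 was between 117 kb (Acox3) and 1979 kb (Col18a1) away.

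The 5 widest peaks spanned 3522 to 4780 bp. Zfp608, a zinc finger gene, had a peak of 4780 bp (strength 85.0), and Mycn, a proto-oncogene of neural progenitors, one of 4380 bp (82.2). Gm41011, a long noncoding RNA gene, had 3805 bp, Ptch1 3803 bp and the Wnt ligand gene Wnt5a 3522 bp. The Mycn and Ptch1 peaks ended 111 and 660 bp from an NMDA peak. The median replicate overlap of 66.6% was exceeded by all of these 5, with 79.1 to 97.0%.

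The limits of the selection cut through peaks of similar kind. Nearest inside the 1 kb limit were peaks in the atlastin GTPase gene Atl2 (1001 bp from a gene end), Pou2f2 and Tubb2a (1004 and 1004.5 bp), and Crim1 and Ptgis (1005 bp each). Just outside it were peaks in 2310033P09Rik (998.5 bp), Ascl4 (998 bp), Coa7 (995 bp), and Tmem95 and Ccdc190 (993.5 bp each). The longest hosts kept were Akap13 (299084 bp), Atp2b2 (298783 bp) and Slc44a5 (298312 bp), and the shortest left out were Zfp423 (300244 bp) and Kcnq3 (300263 bp). Closest to an NMDA peak without touching it were peaks in Ap5b1 (a gap of 50 bp), Mycn (111 bp), Lrfn2 (115 bp), Septin7 (123 bp) and Phlpp1 (124 bp). The smallest overlaps that removed a peak were at Tril, A930004D18Rik, Cep70, Hif1a and Brd2, with gaps of −66, −108, −113, −115 and −175 bp, where a negative gap is the length of the overlap.

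Most of these peaks had no listed NMDA peak nearby, which the selection set in part, since it removed every peak that overlapped one. Of 3784, 36 (0.951%) had one within 1 kb, 130 (3.44%) within 10 kb and 837 (22.1%) within 100 kb, against 9.28% within 100 kb in long genes, 19.8% for intergenic peaks and 22.6% at gene ends. Over all resting peaks, shared ones included, the shares were 11.5% within 1 kb, 13.6% within 10 kb and 29.1% within 100 kb. For the resting-only intragenic peaks the median gap to the nearest NMDA peak was 293 kb, against 567 kb in long genes. Another resting peak lay within 10 kb of 808 of them (21.4%), and the median gap to it was 39.0 kb. Within 2 kb another resting peak lay in 7.37% of cases (95% interval 6.56 to 8.25%), against 19.2% (15.1 to 23.8%) for shared peaks. All intervals are exact Clopper-Pearson intervals and cover counting error over peaks only.

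Protein-coding genes hosted 3172 of the peaks, and 612 lay in noncoding genes only. The 3343 host genes comprised 2651 protein-coding genes and 658 long noncoding RNA genes, the rest being pseudogenes and other RNA genes. Peaks in noncoding hosts had a median strength of 33.1, and those in coding hosts 29.5, with widths of 585 and 582 bp. Of the peaks, 3601 lay inside 1 gene only, and 183 lay where 2 genes overlap, which leaves their host ambiguous. Of the coding hosts, 2202 held 1 peak, 369 held 2, 66 held 3, 9 held 4 and 5 held 5.

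A host was a gene with length to hold a peak. Of the 21343 coding genes under 300 kb, 12.4% held at least 1 of these peaks, and the median host was 64.3 kb long against 13.7 kb for other coding genes. Among genes under 5 kb the share was 0.634% (0.434 to 0.894%), at 20 to 50 kb it was 12.7%, and at 200 to 300 kb it was 59.4% (54.6 to 64.0%). Per length the order was the opposite. Since the selection removed the outer 1 kb on each side, rates were taken over the gene body beyond it. Genes under 5 kb held 9.02 peaks per Mb, those of 5 to 10 kb 7.39, those of 10 to 20 kb 6.23, those of 50 to 100 kb 4.69 and those of 200 to 300 kb 3.74, and the rate over all these genes was 4.63. Over the whole gene length the rates were 2.91 under 5 kb and 4.37 over all genes. Shares of gene groups below are given with their median gene length and their rate per Mb beyond 1 kb from either end. Only listed coding genes under 300 kb were counted. This left out 16 of 52 axon guidance, 7 of 22 postsynaptic scaffold and 7 of 30 presynaptic release genes, among others. Rates were taken over the summed length of a group's genes, so longer genes weigh most in them. The shares and rates are to be read against genes of like length, since 12.4% and 4.63 per Mb cover all lengths. Coding genes of 50 to 100 kb were hosts in 27.3% of cases, and those of 100 to 200 kb in 43.2%, at 4.27 per Mb.

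**Figure D3:**
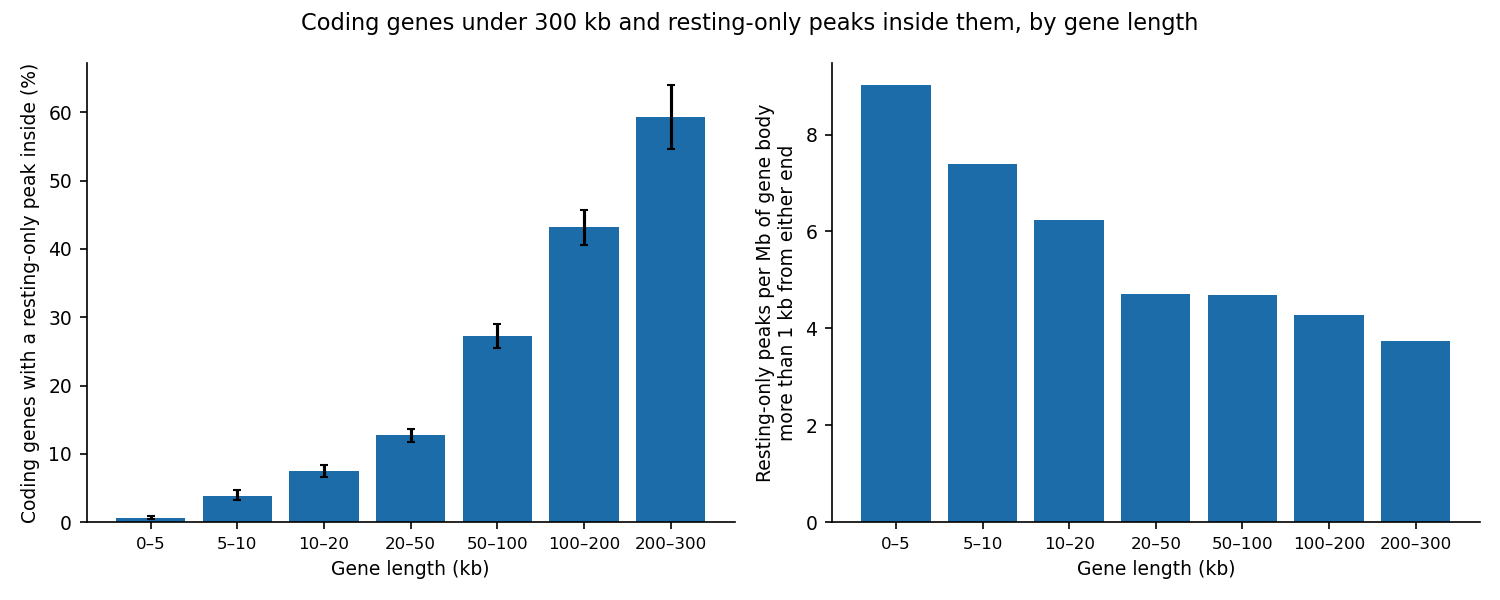
Share of coding genes under 300 kb that held a resting-only intragenic peak (left, %, bars with exact 95% intervals) and such peaks per Mb of gene body more than 1 kb from either end (right), by gene length in kb. The share is 59.4% in the longest genes and 0.634% in the shortest, while the rate per Mb is 3.74 in the longest and 9.02 in the shortest.

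The genes with most peaks were long. Macrod1, a mono-ADP-ribose hydrolase gene of 141 kb, held 5 peaks with strengths of 28.3, 66.0, 45.4, 18.6 and 56.7. Nhsl1, a regulator of cell migration, held 5 with strengths from 20.8 to 53.8, and the cytoskeletal gene Septin9 held 5 from 20.0 to 52.9. Spata13, a guanine nucleotide exchange factor gene, and Celf4, an RNA-binding protein gene of neurons, held 5 each with at most 56.0 and 47.3.

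Among hosts of 4 peaks were Sema3d, a secreted guidance cue gene, Trio, an exchange factor gene of axon growth, and Lingo1, a gene of the Nogo receptor complex. Mvb12b of the endosomal sorting machinery and the actin nucleator gene Cobl completed the 10. Only Sema3d and Trio of these 10 had an NMDA peak within 1 kb of an end, in both cases at the 5' start, where a resting peak lay too. Over all hosts of 100 to 200 kb the share with an NMDA peak at an end was 7.57%, and over those of 200 to 300 kb 12.8%. Celf4 had a resting peak at an end and no NMDA peak there.

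Host genes were then examined for peaks at their own ends, which the selection had not used. An NMDA peak lay within 1 kb of an end in 173 of 2651 coding hosts (6.53%), against 4.44% of the other coding genes and 4.69% of all coding genes under 300 kb. A resting peak lay there in 563 hosts (21.2%), against 12.7% of other genes and 13.8% of all. Hosts are longer, and gene length went with these shares. Under 5 kb, where only 32 genes were hosts, an NMDA peak stood at an end of 15.6% of hosts and 2.31% of other genes, at 5 to 10 kb of 6.19% and 4.14%, and at 10 to 20 kb of 3.74% and 3.86%. At 20 to 50 kb the shares were 5.25% of hosts and 5.02% of other genes, at 50 to 100 kb 5.25% and 7.87%, at 100 to 200 kb 7.57% and 9.90%, and at 200 to 300 kb 12.8% and 5.68%. For NMDA peaks the direction thus differed between lengths. A resting peak stood at an end of 37.5% of hosts and 7.40% of other genes under 5 kb, 24.8 and 12.3% at 5 to 10 kb, and 13.3 and 12.7% at 10 to 20 kb. The shares were 16.2% of hosts and 13.4% of other genes at 20 to 50 kb, 18.1 and 19.9% at 50 to 100 kb, 26.2 and 24.9% at 100 to 200 kb, and 35.8 and 25.6% at 200 to 300 kb. For resting peaks hosts had the higher share in each length class except 50 to 100 kb, with the widest differences under 10 kb and at 200 to 300 kb.

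Strand was known for 2080 hosts and 14987 other coding genes. The 5' start of a host carried an NMDA peak in 6.11% of cases and a resting peak in 19.5%, and that of other genes in 4.28% and 11.1%. At the 3' end the shares in hosts were 0.144% for NMDA and 2.07% for resting peaks. Where a resting peak stood at the start, an NMDA peak stood there too in 98 of 406 hosts (24.1%, 20.1 to 28.6%), and in 373 of 1664 other genes (22.4%, 20.4 to 24.5%). These intervals overlap. A host that lacked an NMDA peak at its inner site could thus carry one at its start. A shared peak inside the gene was held by 76 of 2651 hosts (2.87%), against 208 of 18692 other coding genes (1.11%) and 1.33% of all, whose lengths differ. Those 76 are 26.8% of the 284 coding genes with such a peak.

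Along the gene, the peaks were denser near both ends than in the middle. Within 1 to 2 kb of the 5' start they occurred at 11.9 per Mb (exact Poisson 95% interval 10.2 to 13.8), at 10 to 20 kb at 3.81 (3.41 to 4.25), and at 100 to 300 kb at 4.88. Counted from the 3' end the rates were 7.20 at 1 to 2 kb (5.89 to 8.72), 5.28 at 10 to 20 kb and 3.40 at 50 to 100 kb (3.06 to 3.76). Shared peaks fell away more steeply from the start, with 4.05 per Mb at 1 to 2 kb and 0.266 at 10 to 20 kb, and showed 0.343 at 1 to 2 kb from the 3' end. The first kilobase on each side was removed by the selection and is not counted in either class.

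**Figure D4:**
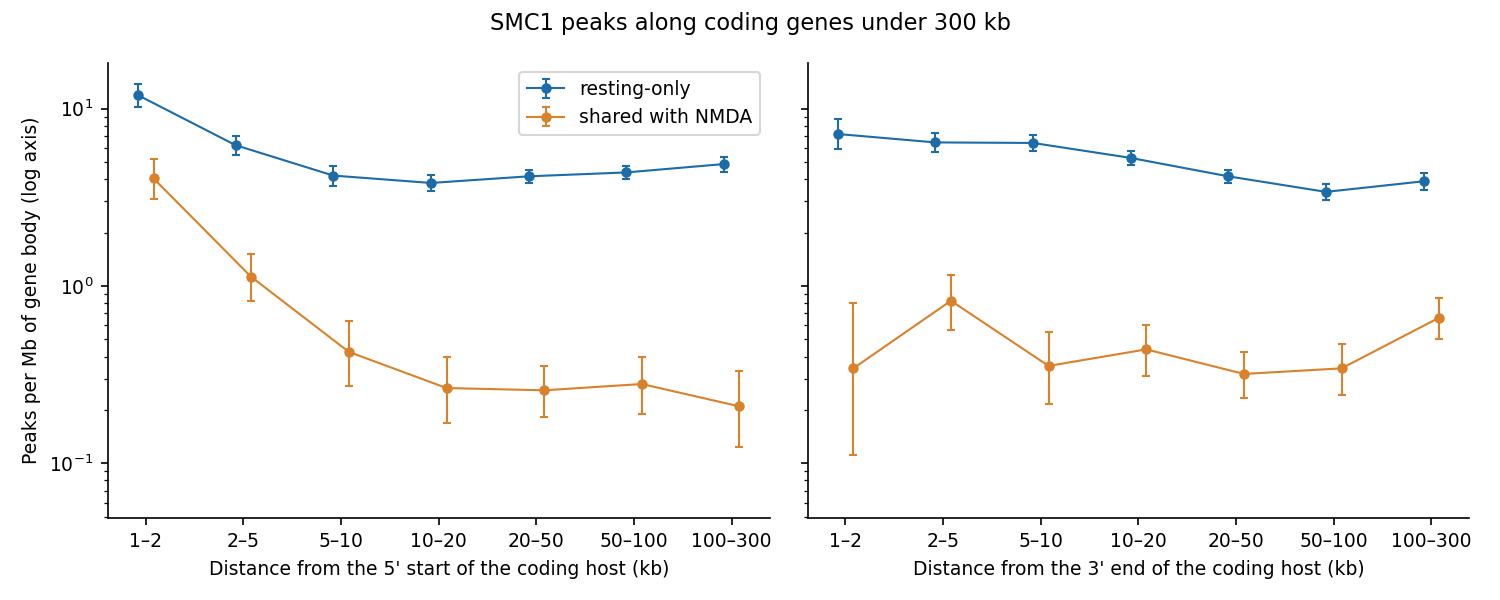
Resting-only (blue) and shared (orange) peaks per Mb of gene body, log axis, by distance in kb from the 5' start (left) and 3' end (right) of coding genes under 300 kb; bars are exact Poisson 95% intervals. Resting-only peaks stay between 3.40 and 7.20 per Mb on the 3' side, and shared peaks drop to 0.266 per Mb at 10 to 20 kb from the start.

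In hosts of 20 kb or longer, the resting-only intragenic peaks lay more often in the 3' part of the gene. Of 2140 such placements, 1247 (58.3%, 56.1 to 60.4%) were nearer the 3' end, and the share lay between 54 and 68.4% on all 19 chromosomes with strand data. Divided into 5 equal parts from the start, the gene held 20.5, 13.7, 15.1, 22.9 and 27.8% of them in turn. Of 189 placements of shared peaks in hosts of the same lengths, 65 (34.4%, 27.6 to 41.6%) were nearer the 3' end, and 44.4% lay in the first part. For the resting-only peaks median strength was 26.6 in the first part and 30.9 in the last, and median width was 704.5 and 571 bp. The first part thus held wider and weaker peaks.

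Overlap with an annotated transcript start set some of the peaks apart. Of 3665 on chromosomes with start windows, 210 (5.73%, 5.00 to 6.53%) overlapped a window, 209 of them one of their own host. Of the 210, 194 met a window more than 1 kb from the start of its gene, and 16 met only windows within 1 kb of it. The share was 3.87% in long genes and 24.3% (19.7 to 29.3%) in shared peaks, beside 55.5% at gene ends. At 1 to 2 kb from the nearest gene end it was 12.2% for resting-only and 34.7% for shared peaks, at 2 to 5 kb 6.47 and 30.2%, and beyond 20 kb 3.43 and 23.7%. At 5 to 10 kb and at 10 to 20 kb the intervals of the classes overlapped. Resting-only peaks over a window had a median strength of 26.3 and width of 972 bp, against 30.3 and 571 bp for the others. Overlap was counted over the whole peak, so wider peaks had more room to meet a window. Shared peaks were the wider class, with a median of 928.5 against 583 bp, and the part of width in these shares was not tested.

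**Figure D5:**
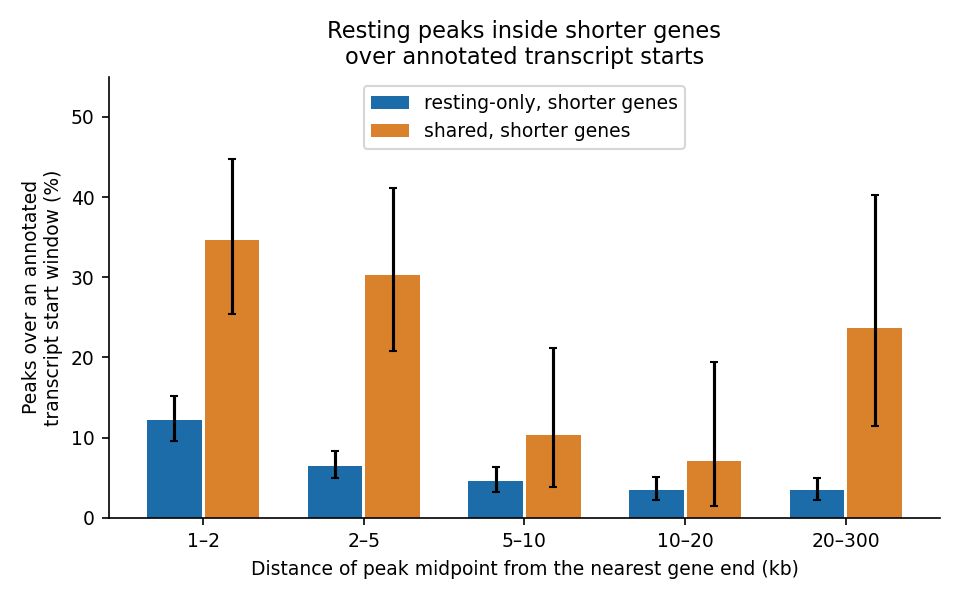
Share of peaks (%) that overlapped a 300-base window at an annotated transcript start, by distance in kb of the peak midpoint from the nearest gene end, for resting-only (blue) and shared (orange) peaks inside shorter genes; bars are exact 95% intervals. Resting-only peaks go from 12.2% at 1 to 2 kb to 3.43% beyond 20 kb, with shared peaks at 34.7 and 23.7%.

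The windows under these peaks were rich in CpG, as in Prickle1 and Smco4. Over 254 windows of 210 genes the median ratio of observed to expected CpG was 0.78, against 0.78 under shared peaks, 0.82 under resting-only peaks at gene ends and 0.38 over all 32851 windows. A ratio above 0.6 was found in 78.7%, against 35.8% of all windows. Searched on both strands, the CTCF core form described above occurred in 54 windows (21.3%, 16.4 to 26.8%), against 15.2% under shared peaks, 20.4% under resting-only peaks at gene ends and 8.61% of all windows. Some windows overlap each other under 1 peak, as in Pdzd9 and Pigo. A site can thus be counted more than once, and the intervals over windows are too narrow. It occurred in 20.5% of CpG-rich and 24.1% of CpG-poor windows here (13 of 54, 13.5 to 37.6%), against 13.8 and 5.70% over all windows, so over all windows the share moved with base composition. TGACGTCA, the cyclic AMP response element bound by CREB, occurred in 5 windows (1.97%), against 1.79% of all. Among these, the Tiprl windows chr1:165236909-165237208 and chr1:165236911-165237210 nearly coincide. TGANTCA, the AP-1 site, where N is any base, occurred in 5 (1.97%), against 9.09% under shared peaks and 7.81% of all windows. A cyclic AMP response element cannot contain an AP-1 match, since the spacing of TGA and TCA differs, and the CTCF form was not checked for overlap with either. A match describes the letters and does not show binding.

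Genes of the neuronal activity response held 3 of these peaks in the early and 10 in the late response list, at rates per Mb above that of all genes. Short genes had higher rates in general, with 9.02 per Mb under 5 kb and 6.23 at 10 to 20 kb over all coding genes. The list rates rest on few peaks, and of the 10 late response peaks Lingo1 held 4 and Inhba 3. Lingo1 is 178 kb long, and coding genes of 100 to 200 kb held 4.27 per Mb, so the short-gene rates are a loose comparison for that list. Among early response genes 3 of 23 were hosts (13%, median length 4.29 kb, 18.7 per Mb): the Krüppel-like factor gene Klf4 with 25.5 (17.1 and 8.34), the stress response factor gene Atf3 with 21.4 (7.25 and 14.2) and the zinc finger factor gene Egr2 with 21.2 (11.3 and 10.0). Late response genes were hosts in 5 of 19 cases (26.3%, median length 11.6 kb, 15.2 per Mb). The cell cycle inhibitor gene Cdkn1a had 91.5 (54.8 and 36.6), Lingo1 60.7 and the activin subunit gene Inhba 35.0 for the strongest of its 3 peaks. In the neurotrophin gene Bdnf, which uses many alternative promoters, the peak lay at chr2:109694812-109695352, 20.4 kb from the nearest gene end, with 31.0 (11.3 and 19.7). The 3 early response peaks failed the stricter IDR of 0.01 and lay within 5 kb of a gene end. An NMDA peak stood at an end of 1 of the 5 late response hosts, and at none of the 4 named here, beside 6.53% of all coding hosts.

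Synaptic genes, which are long, were hosts in shares and at rates above and below those of all coding genes. Of all coding genes of 50 to 100 kb, 27.3% were hosts, at 4.69 per Mb. Presynaptic release genes held such peaks in 11 of 23 cases (47.8%, median length 59.6 kb, 8.08 per Mb), among them the synaptic vesicle gene Syn2 with 51.4, the vesicle glycoprotein gene Sv2b with 41.4, the fusion ATPase gene Nsf with 39.1 and the calcium sensor gene Syt7 with 34.7. None of the 11 had an NMDA peak at an end, where 5.25% of all coding hosts of 50 to 100 kb had one. A lack in so few hosts does not set them apart. Of the 11, 4 remained hosts at an IDR up to 0.01. Of 23 listed glutamate receptor genes, 11 were 300 kb or longer and were not counted. Those under 300 kb were hosts in 5 of 12 cases (41.7%, median length 78.6 kb, 3.89 per Mb). The NMDA receptor subunit gene Grin3a had 41.6, the AMPA receptor subunit genes Gria3 and Gria2 33.2 and 32.2, and the kainate receptor subunit gene Grik3 20.3. Grin3a had an NMDA peak at an end, and the others named here had none.

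Postsynaptic scaffold genes were hosts in 4 of 15 cases (26.7%, median length 67.2 kb, 2.93 per Mb), with 91.7 in Baiap2, 33.8 in Dlgap4, 18.98 in Shank1 and 18.8 in Shank3. Dlgap4 had an NMDA peak at its 5' start. GABA and glycine synapse genes were hosts in 2 of 21 cases (9.52%, median length 90.7 kb, 0.943 per Mb), Glra1 with 57.2 and Gabra5 with 19.2. Their median length of 90.7 kb was above that of scaffold genes (67.2 kb), and their rate beyond 1 kb was the lowest of the 36 lists. In calcium to CREB signalling 8 of 38 were hosts (21.1%, median length 63.5 kb, 3.4 per Mb), led by the calmodulin kinase genes Camk2b with 81.5, Camk2g with 38.0 and Camk2a with 34.2, and the adenylyl cyclase gene Adcy8 with 37.0.

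Genes of wiring and patterning were examined next. Axon guidance genes were hosts in 13 of 36 cases (36.1%, median length 87.0 kb, 7.61 per Mb), with the netrin receptor gene Unc5b at 69.8, the semaphorin genes Sema3f at 59.8 and Sema3d at 48.9, and the Slit ligand gene Slit1 at 41.2. An NMDA peak stood at an end of 4 of the 13, Unc5b and Sema3d included. Over all coding hosts the share was 5.25% at 50 to 100 kb and 12.8% at 200 to 300 kb, the class of Sema3d (206 kb). The guidance count rests on few hosts and was not tested, and 3 of 9 TBC and Rab GAP hosts had such a peak too. Wnt pathway genes were hosts in 12 of 49 cases (24.5%, median length 27.1 kb, 7.39 per Mb), where the ligand genes Wnt9a, Wnt5a and Wnt11 had 95.9, 94.1 and 68.35 and the transcription factor gene Tcf7 had 45.3. Cortical neuron transcription factor genes were hosts in 8 of 21 cases (38.1%, median length 75.4 kb, 7.66 per Mb), among them the layer identity regulators Cux2 with 57.6 and Bcl11a with 44.5, and Pou3f3 with 35.3. Progenitor genes were hosts in 5 of 20 cases (25%, median length 8.94 kb, 7.33 per Mb), with Hes1 at 107, the intermediate filament gene Vim at 50.5, the proneural factor gene Neurog2 at 43.1 and the Notch ligand gene Dll1 at 21.9.

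Chromatin genes included parts of the cohesin machinery itself. Of cohesin and CTCF genes 2 of 14 were hosts (14.3%, median length 46.0 kb, 1.88 per Mb), the loader gene Nipbl with 29.7 (12.6 and 17.1) and the regulator gene Pds5b with 22.03 (7.69 and 14.3). Histone and DNA modifier genes were hosts in 15 of 53 cases (28.3%, median length 65.0 kb, 5.21 per Mb), with Hdac11 at 42.7, Dot1l at 40.6, Setd1b at 40.2 and Hdac4 at 39.4. Zfp zinc finger genes, many of which lie in repeated clusters, were hosts in 26 of 391 cases (6.65%, median length 17.7 kb, 2.99 per Mb), with Zfp608, Zfp219, Zfp516 and Zfp950 between 55.5 and 85.0.

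Matrix, adhesion and cytoskeletal genes, many of them long, had shares above 12.4%, the value over all lengths. Of all coding genes, 27.3% were hosts at 50 to 100 kb and 43.2% at 100 to 200 kb. Collagen genes were hosts in 24 of 40 cases (60%, 43.3 to 75.1%, median length 106 kb, 7.85 per Mb), with Col18a1 at 115, Col27a1 at 75.3, Col1a1 at 69.8 and Col4a2 at 64.4. None of the 24 had an NMDA peak at an end, beside 6.53% of all coding hosts and 7.57% of those of 100 to 200 kb. These shares are low, so a lack in 24 hosts does not set the collagens apart. Laminin and integrin genes were hosts in 13 of 40 cases (32.5%, median length 59.4 kb, 5.21 per Mb), led by Itga6 with 75.6, Lamb3 with 64.9, Lama3 with 58.6 and Itgal with 38.1. Myosin genes were hosts in 10 of 21 cases (47.6%, median length 77.7 kb, 7.68 per Mb), with 39.6 to 49.7 in Myo1e, Myo1h, Myo18b and Myo1d. Cadherin genes were hosts in 6 of 17 cases (35.3%, median length 89.6 kb, 5.17 per Mb), Cdh20, Cdh11, Cdh1 and Cdh6 having 28.6 to 44.3.

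Enzyme, channel and transport families had rates on both sides of that of all genes. Tyrosine phosphatase genes were hosts in 9 of 15 cases (60%, median length 113 kb, 6.3 per Mb), with Ptprf at 56.1, Ptprb at 43.5, Ptprs at 37.8 and Ptprr at 32.1. TBC and Rab GAP genes were hosts in 9 of 29 cases (31.0%, median length 58.4 kb, 5.71 per Mb), Tbc1d8, Tbc1d1, Tbc1d16 and Tbc1d19 having 27.7 to 42.5. Calcium and sodium channel genes were hosts in 9 of 33 cases (27.3%, median length 67.0 kb, 3.8 per Mb), led by Cacna1h with 70.7, Cacna2d4 with 53.2, Cacnb4 with 46.3 and Scn1a with 42.7. Potassium channel genes were hosts in 15 of 79 cases (19%, median length 24.1 kb, 3.98 per Mb), with Kcna2 at 95.3, Kcna10 at 71.9, Kcnh6 at 68.6 and Kcnn1 at 60.9.

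Solute carrier genes were hosts in 60 of 366 cases (16.4%, median length 28.0 kb, 4.59 per Mb), close to the rate of all genes, with Slc4a5, Slc44a5, Slc38a10 and Slc35f3 between 51.3 and 67.3. ABC transporter genes were hosts in 10 of 49 cases (20.4%, median length 64.1 kb, 3.01 per Mb), with 78.5 in Abcb9, 66.0 in Abcc12, 56.0 in Abcc4 and 25.95 in Abca1. Phosphodiesterase genes were hosts in 3 of 19 cases (15.8%, median length 69.3 kb, 2.47 per Mb), Pde5a, Pde2a and Pde3a having 21.2 to 30.1. ADAM and ADAMTS protease genes were hosts in 7 of 55 cases (12.7%, median length 36.3 kb, 2.69 per Mb), with Adam11 at 59.9, Adamts3 at 43.8, Adamts14 at 30.8 and Adam18 at 29.5. Short genes hardly served as hosts: 1 of 53 keratin genes did (Krt78, median length 7.07 kb, 5.86 per Mb), 1 of 77 ribosomal protein genes (Rpl38 with 31.8, median length 3.16 kb, 7.56 per Mb) and 1 of 1110 olfactory receptor genes (Olfr1393 with 28.2, median length 0.95 kb, 1.12 per Mb).

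Genes that mark other cell types or tissues were hosts as well. Oligodendrocyte lineage genes were hosts in 5 of 16 cases (31.2%, median length 18.7 kb, 15.2 per Mb), with the myelin gene Mbp at 69.3, Bcas1 at 50.2, Nkx2-2 at 48.8 and Cspg4 at 32.0. That rate rests on 8 peaks, of which Bcas1 held 3 and Mbp 2. Endothelial genes were hosts in 2 of 16 cases (12.5%, median length 48.5 kb, 3.3 per Mb), Vwf with 59.2 and Emcn with 41.5. Microglial genes were hosts in 1 of 16 cases (6.25%, median length 20.0 kb, 1.78 per Mb), the myeloid factor gene Spi1 with 70.9, and astrocyte genes in 1 of 12 (8.33%, median length 14.2 kb, 2.63 per Mb), Acsbg1 with 37.9. Skeletal and heart muscle genes were hosts in 4 of 29 cases (13.8%, median length 23.6 kb, 4.62 per Mb), with Ldb3 at 70.3, Mylk at 53.1, Ttn at 22.4 and Ryr1 at 22.3. Liver genes were hosts in 3 of 20 cases (15.0%, median length 12.4 kb, 8.52 per Mb), Ass1, Hnf4a and Apob having 19.04 to 32.8. The muscle share and rate were thus close to those of all coding genes under 300 kb. The liver list, made of shorter genes, had a higher rate, which rests on 4 peaks.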

How the data were processed

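SMC1 ChIP-seq of NMDA-treated and resting cortical neurons was examined, with 2 ChIP and 2 input samples per condition; samples were grouped by treatment and antibody labels. Reads were processed with tools that include MACS2, BWA, SAMtools, Trimmomatic and FastQC, on the builds GRCm38.p6 and mm10, per the submitters' processing notes, where neither versions nor settings are stated. For each condition the authors deposited 1 list in the 20-column layout of the IDR tool, holding the −log10 p of each replicate, their sum on every line, the −log10 of the IDR and an IDR score up to 1000. The fold enrichment field holds a placeholder, so the summed −log10 p served as strength. It grows with depth, which is unknown, and was compared within the resting list only. The replicate columns carry no replicate numbers. Input values were not used here, and sequence inside peaks away from transcript starts was not analysed here.

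Gene positions (49997 genes) came from a RefSeq table of GRCm38.p6 that gives no exons or introns, and strand, transcript starts and their sequence from a RefSeq table of start windows, in which 17067 coding genes under 300 kb had an entry. Starts on chromosome 18 were not analysed here. Selection, classes and counts were computed with Python 3.11.15, pandas 2.3.3, NumPy 2.4.6 and SciPy 1.17.1, tested on simulated peaks. With 1 list per condition no test between conditions was possible, and peaks and genes are not replicates, so shares carry exact Clopper-Pearson and rates exact Poisson 95% intervals for counting error, with no p-value. The members, the 36 gene lists and the tests were chosen with earlier results of these data known. Named genes are the 15 strongest peaks, the 5 widest, the 10 coding hosts with most peaks, peaks at each limit, and up to 4 genes per list with the strongest peak; a few of these, and 1 list, are not reported here. Prickle1, Gm13404 and Smco4 were named for their sequence, after their values were seen. Alternatives covered the overlap, IDR limit, gene end distance, host length and biotype, and each replicate column alone.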

Additional observations from a re-analysis of the deposited data

How the results depend on the processing

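The number of resting-only intragenic peaks stayed within 1.5 times of 3784 when the overlap had to cover 50% of the resting peak (3811), when NMDA peaks within 1 or 10 kb counted as shared (3748 and 3654), with gene end distances of 500 bp or 2 kb (4311 and 3212), host limits of 200 or 500 kb (3394 and 4184) and coding hosts only (3172). It was 2123 at an IDR up to 0.01 and 2291 more than 5 kb from gene ends. At the strict IDR the median strength was 39.1 and the width 624 bp. The log2 ratios of median strength were then 0.079 against long genes, −0.038 against intergenic and −0.53 against shared peaks, and those of width 0.033 against intergenic and −0.54 against shared peaks. No direction was reversed.

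With each replicate column alone, the median −log10 p was 14.5 and 14.95. The log2 ratios of strength ranged from 0.036 to 0.057 against long genes, −0.098 to −0.091 against intergenic peaks and −0.67 to −0.59 against shared peaks. Those of width were 0.0330 and 0.0335 against intergenic peaks and −0.84 to −0.70 against shared peaks. An NMDA peak stood within 5 kb of an end in 9.32% of hosts, against 6.28% of other coding genes. Host counts of gene lists stayed within 1.5 times in 14 of 36 lists at the strict IDR and in 21 of 36 beyond 5 kb from gene ends, and all coding hosts numbered 1572 and 1744. Early response genes had no host under either setting. At the strict IDR presynaptic release genes had 4 hosts, ABC transporter genes 3 and histone and DNA modifier genes 6, and beyond 5 kb cortical neuron transcription factor genes had 3 and progenitor genes 1.

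The following were chosen after seeing the data. Start windows were met by 4.33% at the strict IDR and 3.80% beyond 5 kb. Nearness to the 3' end was 62.1% at the strict IDR, 62.4% beyond 5 kb from gene ends and 57.8% among peaks inside 1 gene only. The rate on the X chromosome was 0.42 per Mb at the strict IDR, where that over the autosomes was 2.49 per Mb. Each setting keeps fewer peaks, and the cause of these shifts was not tested. No paired analysis was possible because the replicate columns carry no numbers and no result comes from a test. Depth limits what absence from the NMDA list means.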

Other observations

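The X chromosome held few of the resting-only intragenic peaks. It had 35 of 3784 (0.925%, 95% interval 0.645 to 1.28%), although X carries 4.23% of the length of coding genes under 300 kb. In coding genes the rate was 1.03 peaks per Mb on X (32 placements) and 4.53 per Mb over the autosomes, which ranged from 3.63 on chromosome 12 to 5.22 on chromosome 11. Other classes had low shares on X too, with 5 of 1684 NMDA peaks (0.297%), 114 of 12359 resting peaks (0.922%) and 1.47% of resting-only intergenic peaks. The labels give no sex for the cultures, and input coverage of X was not analysed here. No such peak was listed on Y.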
